A study of Macaca mulatta with 8 samples.

Results

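The collagen genes and the genes of fibroblast matrix and fibroblast or mural cell identity were examined in cultured microglia of the rhesus macaque. Members were taken from the count tables by symbol: every gene named as a collagen chain (COL, a number, A, a number), plus LUM, DCN, FN1, SPARC, FBN1, POSTN, THY1, PDGFRB and ACTA2. This gave 50 of the 35432 genes in the tables, of which 41 were collagen chains. Of the 50 genes, 28 had at least 10 counts in at least 4 libraries, and these were 20 collagen chains and 8 others.

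Microglia were isolated from the frontal subcortical white matter of 4 adult rhesus macaques: the males R07110 (13 years) and R12016 (9 years) and the females R02046 (19 years) and R14143 (6 years). Cells of each animal received ultrapure LPS (uLPS, 10 µg/mL), an agonist of TLR4, for 16 h, either alone or after 1 h of pre-incubation with 5 µM MRS2578, an antagonist of the UDP receptor P2RY6. All cultures received M-CSF (10 ng/mL per the labels) and were kept for 8 days, with exposure at day 7, so every library came from uLPS-exposed cells. There was 1 library for each animal and condition, 8 in all, with total counts of 9231109 to 32790348. Meninges and vessels were removed by hand before digestion and microglia were enriched by density gradient and adherence, so other adherent cells could persist in the dishes. Sex and age go with the animal here and cannot be told apart from it.

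Collagens are secreted triple helices of 3 chains, each chain encoded by its own gene. Fibril-forming collagens build tensile fibres, type IV collagen forms the sheet of basement membranes, type VI collagen forms beaded filaments around cells, and other chains decorate fibrils or sit in membranes. In the brain, such genes are chiefly expressed by fibroblasts of the meninges and vessel walls, by mural cells and, for type IV, by endothelial cells, whereas fibronectin (FN1) and SPARC can also be expressed by macrophages.

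The assignment of the R02046 libraries was uncertain. In the study's own table of changed genes, the column named for R02046 with uLPS is proportional to the library labelled R02046 uLPS and MRS2578, and the other way round, whereas the columns of the other 3 animals match their labels. The deposited labels were used throughout, and results are also given with these libraries exchanged and without R02046.

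The culture markers were checked first. Of the 13 microglia markers with a row, CSF1R was at 1003 to 1470 CPM (counts scaled to library size and TMM factor) and ITGAM at 476 to 915 CPM, and the list summed to 5097 to 6546 CPM with uLPS and 4577 to 5746 CPM with MRS2578. CX3CR1, a defining marker in tissue, was at or below 2.21 CPM in every library and P2RY12 at 5.70 to 13.3 CPM. The 10 fibroblast markers outside the member list summed to 59.4 to 143 CPM with uLPS and 72.4 to 81.1 CPM with MRS2578. Among them, MFAP5 had no count in any library and DPT was detected only in the uLPS library of R14143, at 0.152 CPM, whereas PDGFRA was at 45.6 to 69.7 CPM. The 9 mural and smooth muscle markers summed to 54.8 to 108.5 CPM with uLPS and 55.3 to 79.9 CPM with MRS2578, with RGS5 at no more than 0.146 CPM. The 7 endothelial markers summed to 55.7 to 71.7 CPM with uLPS and 44.8 to 126 CPM with MRS2578. Most of that sum was VWF, and EMCN had no count. CLDN5 was at no more than 0.162 CPM, CDH5 at no more than 0.202 CPM and ESAM at no more than 0.315 CPM.

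Matrix transcripts were a small fraction of the RNA, and their amount depended strongly on the animal and library. With uLPS, the 50 genes took 0.0458%, 0.0407%, 0.105% and 0.272% of all counts in R07110, R12016, R02046 and R14143. With uLPS and MRS2578, they took 0.0737%, 0.0804%, 0.138% and 0.11% in the same order. The uLPS library of R14143 was thus the richest in matrix transcripts and that of R12016 the poorest. FN1, COL1A1 and COL1A2 made up 35.0% to 56.7% of these counts. In bulk RNA, fewer cells of a type and less RNA per cell cannot be told apart.

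**Figure D1:**
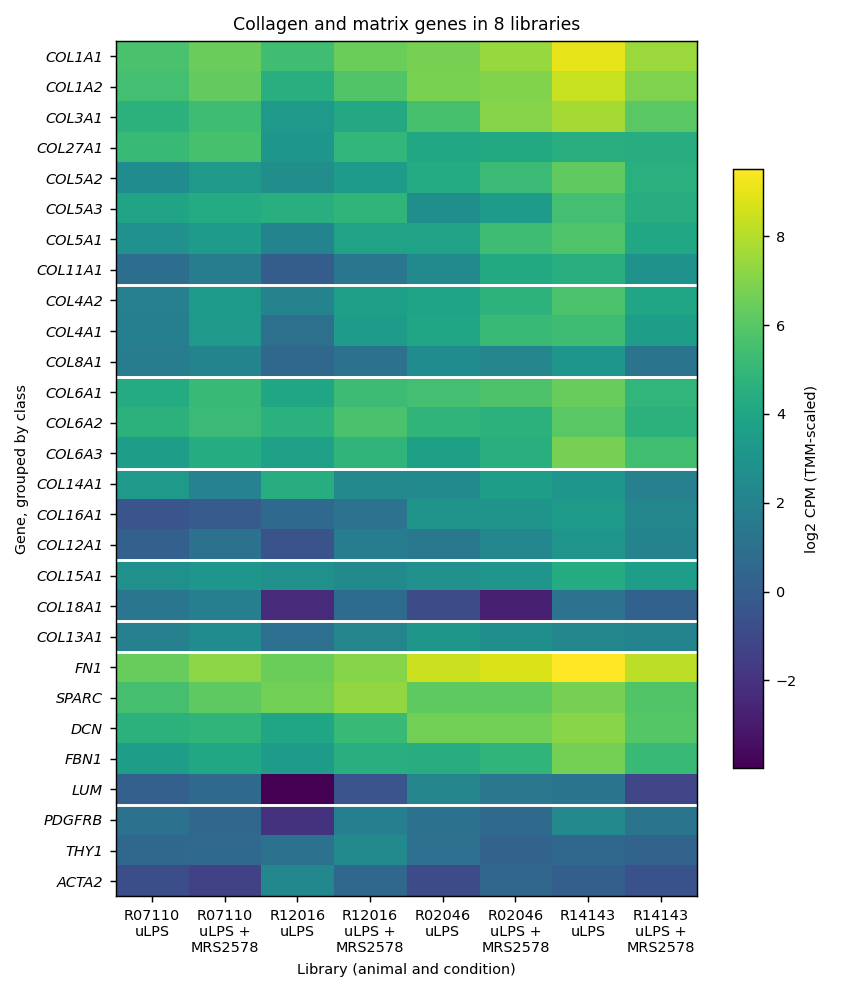
Level of the 28 genes with at least 10 counts in at least 4 libraries, as log2 CPM (colour), for each animal and condition (columns), with white lines between gene classes. The uLPS library of R14143 was the highest library for 20 of the 28 genes and the uLPS library of R12016 the lowest for 16.

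Summed over the 50 genes, the level was 457.5 CPM with uLPS and 705.7 CPM with MRS2578 in R07110, and 437.9 and 784.1 CPM in R12016. It was 1040 and 1407 CPM in R02046 as labelled, and 2775 and 1070 CPM in R14143. The sum was therefore higher with MRS2578 in 3 animals and lower in R14143, and the conditions overlapped. The log2 ratios within the animals were 0.63, 0.84, 0.44 and -1.38, with a mean of 0.13 and an SD of 1.02 (n = 4 animals), so the mean difference was smaller than the spread between animals. The sign of this mean turned on single animals: it was -0.03 without R07110, -0.11 without R12016, 0.03 without R02046 and 0.63 without R14143, and -0.09 with the R02046 libraries exchanged. Without FN1 and SPARC the ratios were 0.58, 0.98, 0.54 and -1.42, and for the 41 collagen chains alone 0.63, 0.98, 0.64 and -1.45.

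**Figure D2:**
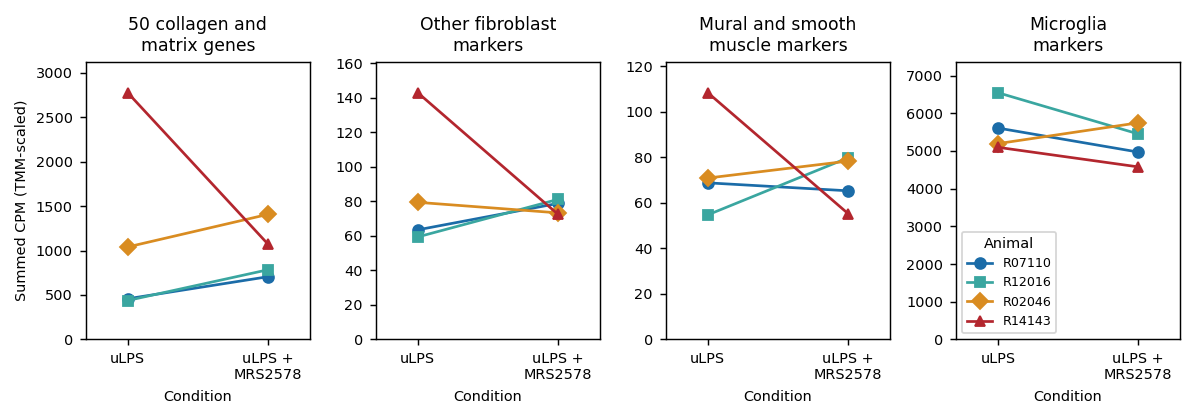
Summed CPM of the 50 collagen and matrix genes and of 3 marker lists with uLPS and with uLPS and MRS2578, with a line for each animal (deposited labels). In R14143 the matrix sum was 2775 CPM with uLPS and 1070 CPM with MRS2578, the other fibroblast markers 143 and 72.4 CPM, and the microglia markers 5097 and 4577 CPM.

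Marker lists of other cells moved with the matrix sum in part. The other fibroblast markers had log2 ratios of 0.31 in R07110, 0.45 in R12016, -0.12 in R02046 as labelled and -0.98 in R14143, and the mural markers -0.08, 0.55, 0.14 and -0.97. Of the 7 other fibroblast markers that were tested, 7 were higher with MRS2578 in R07110, 5 in R12016, 2 in R02046 as labelled and 0 in R14143. BGN, which encodes the matrix proteoglycan biglycan, was at 42.1 CPM in the uLPS library of R14143 and between 6.76 and 14.9 CPM in the other 7 libraries. The microglia markers had smaller log2 ratios of -0.17, -0.26, 0.15 and -0.16. The endothelial markers, from cells that express type IV collagen, had ratios of 0.45, 0.91, -0.31 and 0.02, so their sum was not lower in R14143. Most of that sum was VWF, at 64.8 CPM with uLPS and 69.7 CPM with MRS2578 in R14143. In the same 2 libraries TEK was at 1.42 and 1.84 CPM, whereas KDR was lower with MRS2578, at 5.33 and 1.01 CPM. The astrocyte markers had ratios of 0.03, -0.10, 0.33 and -0.76, and were lower there. The part of these markers in the matrix differences was not tested.

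The fibril-forming collagens were uniform in sign within each animal. COL1A1 and COL1A2 encode the chains of type I collagen, and COL3A1 the chain of type III collagen, which is laid down in soft tissues and vessel walls. COL1A1 (ENSMMUG00000001467; Mmul_10 chromosome 16, 46588741 to 46606662, plus strand) was at 50.6, 41.2, 106 and 511 CPM with uLPS in R07110, R12016, R02046 and R14143, and at 85.8, 90.3, 171 and 178 CPM with MRS2578. COL1A2 (chromosome 3, 111694892 to 111731587, minus strand) was at 45.6, 22.8, 111 and 330 CPM with uLPS and at 76.4, 58.6, 123 and 122 CPM with MRS2578. COL3A1 (chromosome 12, 76112246 to 76149763, plus strand) was at 26.3, 9.63, 48.2 and 209 CPM with uLPS and at 39.7, 17.9, 132 and 67.4 CPM with MRS2578. For all 3 genes the uLPS library of R14143 was the highest of the 8, the other 3 uLPS libraries lay below their MRS2578 partners, and the conditions overlapped. All 8 fibril-forming chains that could be tested (COL1A1, COL1A2, COL3A1, COL5A1, COL5A2, COL5A3, COL11A1 and COL27A1) were higher with MRS2578 in R07110, R12016 and R02046 as labelled, and none was higher in R14143. COL27A1 differed from the others in R14143, where its level was about the same with uLPS (22.0 CPM) and MRS2578 (21.9 CPM).

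Type IV collagen, the main collagen of basement membranes, is built here from COL4A1 and COL4A2, which lie head to head on chromosome 17 of Mmul_10. COL4A1 (91595188 to 91748807, minus strand) and COL4A2 (91748923 to 91949867, plus strand) leave a stretch of 115 bases between their annotated starts. It is shown because both genes read outward from it. The sequence was read from the Mmul_10 genome with the NCBI RefSeq gene starts and is written 5′ to 3′ on the plus strand, towards COL4A2, with capitals marking a CCAAT box (CCAAT) at bases 24 to 28 and a GC box (GGGCGG) at bases 63 to 68:
COL4A1-COL4A2 interval, chr17:91748808-91748922: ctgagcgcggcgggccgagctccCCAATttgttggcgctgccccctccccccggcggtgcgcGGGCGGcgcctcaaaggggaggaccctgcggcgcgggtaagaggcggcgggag
Its GC content was 77.4%, against a median of 60.9% over the 115 bases before 20771 protein-coding gene starts. On either strand, 19% of those windows hold CCAAT, 34.5% hold GGGCGG and 6.97% hold both, and these matches describe letters only. COL4A1 was at 3.65, 1.98, 15.8 and 39.8 CPM with uLPS in R07110, R12016, R02046 and R14143, and at 9.90, 10.7, 34.1 and 12.1 CPM with MRS2578. COL4A2 was at 3.68, 4.14, 14.6 and 51.3 CPM with uLPS and at 10.5, 12.7, 26.8 and 15.8 CPM with MRS2578. Both genes were higher with MRS2578 in 3 animals and lower in R14143. Their within-animal log2 differences were 1.41, 2.37, 1.1 and -1.71 for COL4A1 and 1.49, 1.59, 0.87 and -1.70 for COL4A2. Per kb of annotated exon, the ratio of COL4A1 to COL4A2 ranged from 0.461 to 1.23 over the 8 libraries while COL4A1 itself ranged from 1.98 to 39.8 CPM. The other network chain tested, COL8A1, of the subendothelial type VIII collagen, was lower with MRS2578 in R02046 as labelled and R14143, with log2 differences of -0.39 and -1.82. The other head-to-head type IV pairs, COL4A3 with COL4A4 and COL4A5 with COL4A6, did not pass the filter.

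Type VI collagen links cells to the surrounding matrix. COL6A1 was at 20.01, 15.6, 44.8 and 84.3 CPM with uLPS and at 34.1, 38.3, 53.4 and 29.6 CPM with MRS2578 in the same order of animals. COL6A2 was at 25.8, 24.9, 28.8 and 67.8 CPM with uLPS and at 37.0, 49.6, 25.7 and 25.99 CPM with MRS2578. COL6A3 was at 12.2, 13.3, 13.1 and 107 CPM with uLPS and at 21.1, 28.8, 23.0 and 42.6 CPM with MRS2578. All 3 chains were highest in the uLPS library of R14143, and COL6A3 was also second highest in the other library of that animal. Per kb, COL6A1 over COL6A2 ranged from 0.628 to 2.09, and COL1A1 over COL1A2 from 0.820 to 1.55.

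Among the glycoproteins and proteoglycans, FN1, which cells bind through integrins, had the highest mean CPM over the 8 libraries. FN1 was at 84.7, 89.3, 352 and 731 CPM with uLPS and at 146, 134, 438 and 291 CPM with MRS2578. SPARC, a collagen-binding matricellular protein, was at 45.7, 100, 72.6 and 107 CPM with uLPS and at 71.5, 160, 72.3 and 58.2 CPM with MRS2578, and so exceeded FN1 in both libraries of R12016. SPARC was the only one of the 8 most abundant members whose highest library was not in R14143: it peaked in the MRS2578 library of R12016. DCN, a small proteoglycan that coats collagen fibrils, was at 26.1, 16.3, 99.4 and 138 CPM with uLPS and at 28.7, 35.3, 102 and 62.9 CPM with MRS2578. FBN1, the scaffold of elastic microfibrils, was at 11.8, 10.9, 21.3 and 104 CPM with uLPS and at 17.0, 22.3, 28.9 and 35.7 CPM with MRS2578. FBN1 followed the fibril-forming chains, lower with MRS2578 in R14143 alone. LUM, a relative of DCN beside it on chromosome 11, was scarce: it had 37, 1, 42 and 46 counts with uLPS and 40, 12, 36 and 8 counts with MRS2578.

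The members that mark fibroblasts and mural cells by surface or contractile proteins were low in every library. THY1 was at 1.52, 2.17, 1.92 and 1.42 CPM with uLPS and at 1.54, 5.42, 1.24 and 1.23 CPM with MRS2578. PDGFRB, the platelet-derived growth factor receptor of mural cells, was at 2.19, 0.255, 2.14 and 5.13 CPM with uLPS and at 1.41, 3.66, 1.61 and 2.29 CPM with MRS2578. ACTA2, smooth muscle actin, was at 0.609, 5.04, 0.534 and 1.07 CPM with uLPS and at 0.404, 1.45, 1.39 and 0.671 CPM with MRS2578. Unlike the type I chains, none of these 3 genes exceeded 6 CPM. POSTN, which encodes periostin, did not pass the filter: it had 2, 16, 0 and 3 counts with uLPS and 4, 15, 0 and 2 with MRS2578.

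Per kb of annotated exon, the highest mean levels over the 8 libraries were those of FN1 at 32.9, SPARC at 25.9, COL1A1 at 25.6, DCN at 23.1 and COL1A2 at 21.6 CPM per kb. COL3A1 followed at 14.9 CPM per kb. This order rests in part on the uLPS library of R14143: without it, chosen after seeing the data, the means were 25.5 for FN1, 24.99 for SPARC, 19.2 for DCN, 17.1 for COL1A1 and 15.5 for COL1A2. Per kb, SPARC over FN1 was 1.27 to 3.10 in the 4 libraries of R07110 and R12016 and 0.381 to 0.534 in those of R02046 and R14143. By mean CPM, FN1 ranked 600 and COL1A1 ranked 1258 among the 12267 genes tested. The 22 members that did not pass were 21 collagen chains and POSTN. None had more than 16 counts in a library or 47 counts in all, 14 had fewer than 10 counts in all, and COL19A1 and COL25A1 had none. A count of 0 allows a level of up to 0.0915 to 0.325 CPM, depending on the library, for counting error only. COL2A1, the cartilage collagen, and COL10A1, of growth plate cartilage, were among the genes with fewer than 10 counts.

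**Figure D3:**
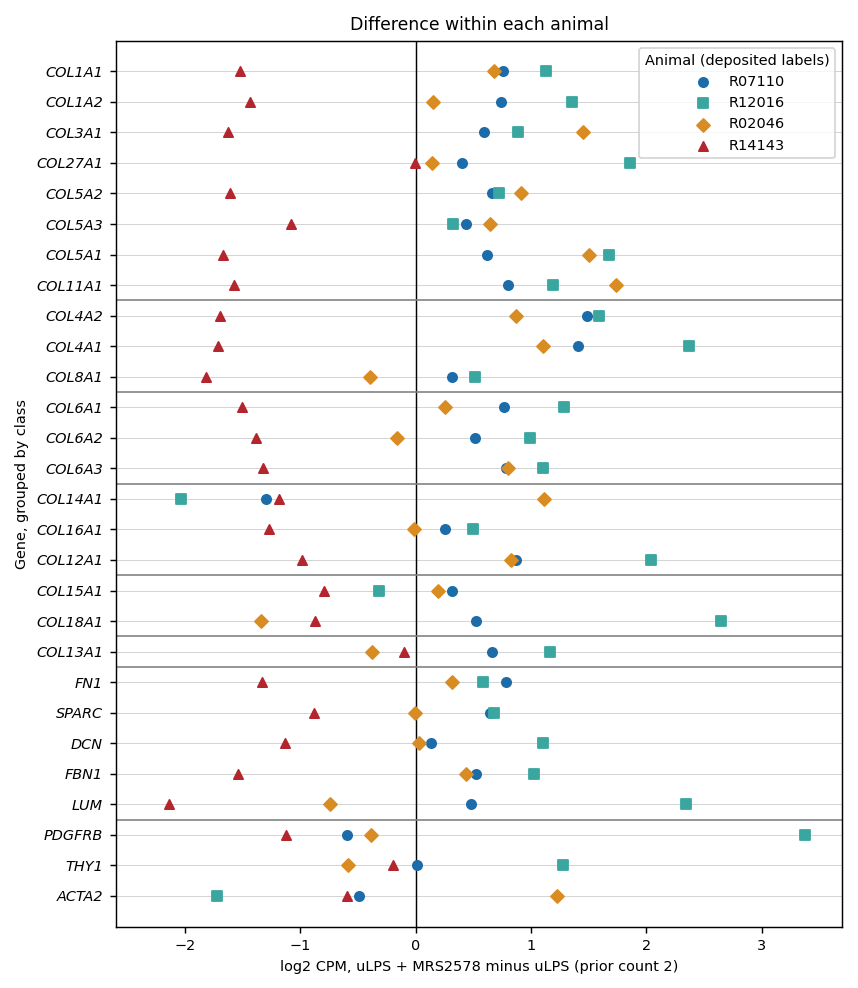
Difference within each animal for the 28 genes, as log2 CPM with uLPS and MRS2578 minus log2 CPM with uLPS, grouped by class and with deposited labels. All 28 points of R14143 lie below 0, and 25 of 28 lie above 0 in R07110 and in R12016.

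The directions within animals show the same split. With MRS2578, 25 of the 28 genes were higher in R07110, 25 in R12016 and 19 in R02046 as labelled, whereas all 28 were lower in R14143. Over all 12267 genes tested, 50.2%, 49.7%, 49.7% and 46.7% were higher in these animals. The median log2 difference of the members was 0.56, 1.12, 0.29 and -1.33, against 0.002, -0.002, -0.001 and -0.03 over all genes. The pattern of higher in R07110 and R12016 and lower in R14143 was found for 24 members (85.7%) and for 18.6% of all genes. COL14A1, ACTA2, COL15A1 and PDGFRB were the 4 members without it. The uLPS library of R14143 was the highest of the 8 for 20 of the 28 members and for 13.3% of all genes, and the directions in R14143 rest on that 1 library and its partner. LUM and COL18A1 had 1 to 3 counts in a library, so their differences depend on the prior count of 2.

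The test of MRS2578 over all animals, which asks whether P2RY6 antagonism changed these transcripts in uLPS-exposed cells, called no member. The quasi-likelihood test of edgeR, blocked by animal and adjusted over all genes (Benjamini-Hochberg), gave 0 of 28 members and 0 of 12267 genes (0%) an adjusted p under 0.05. At an unadjusted p under 0.05 there were 593 genes (4.83%), and 0 members among them. DESeq2's Wald test called 1 gene (0.00815%) and 0 members. COL14A1 was the 1 member that it gave an unadjusted p under 0.05, against 4.9% of all genes. In edgeR no member had an adjusted p below 0.91. The conditions did not overlap for 135 genes (1.1%) and for 0 members. The median log2 fold change of the members was 0.17, with 22 of 28 above 0, and the median of all genes was -0.01. Leaving out an animal moved this median to 0.01 without R07110, -0.07 without R12016, 0.10 without R02046 and 0.58 without R14143.

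**Figure D4:**
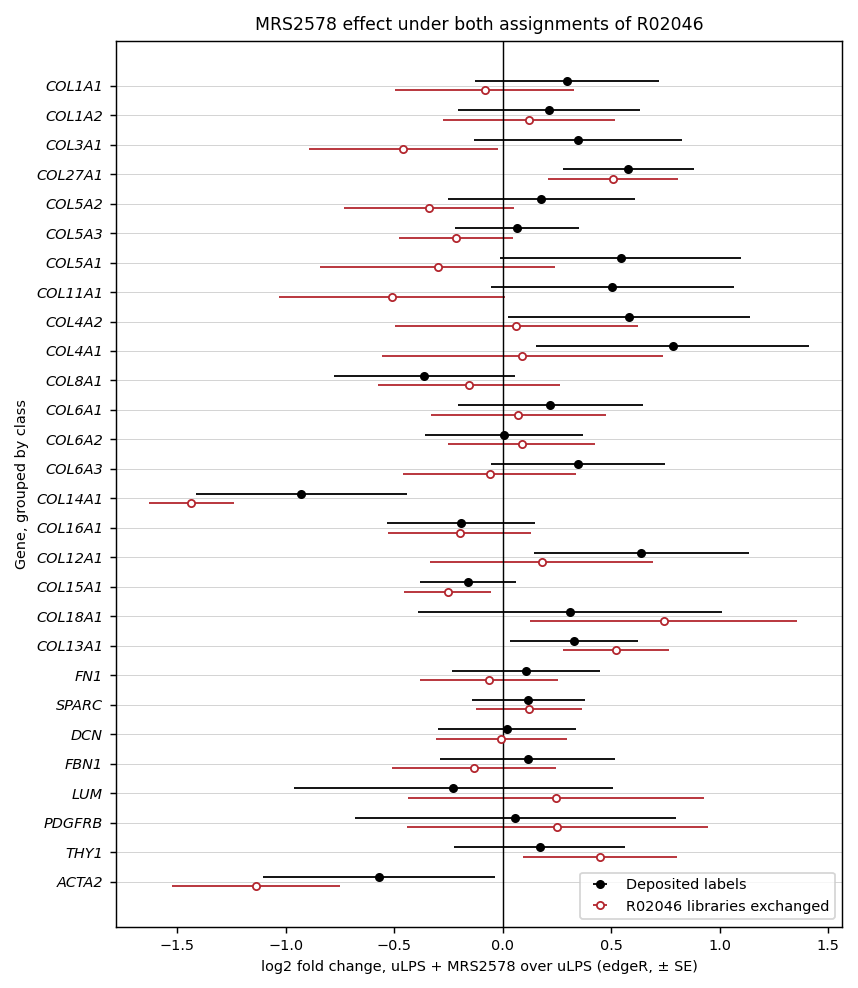
Log2 fold change of uLPS and MRS2578 over uLPS for the 28 genes, with SE (n = 4 animals), from edgeR with deposited labels (black) and with the R02046 libraries exchanged (red, open). Only COL14A1 with the exchanged libraries had an adjusted p under 0.05, at -1.44 ± 0.20.

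By class, the log2 fold changes (± SE, edgeR, n = 4 animals) of the fibril-forming chains were 0.30 ± 0.42 for COL1A1, 0.21 ± 0.42 for COL1A2, 0.35 ± 0.48 for COL3A1, 0.54 ± 0.56 for COL5A1, 0.18 ± 0.43 for COL5A2, 0.07 ± 0.29 for COL5A3, 0.50 ± 0.56 for COL11A1 and 0.58 ± 0.30 for COL27A1. Each value was within 2 SE of 0. Those of the network chains were 0.78 ± 0.63 for COL4A1, 0.58 ± 0.56 for COL4A2 and -0.36 ± 0.42 for COL8A1, and those of type VI collagen were 0.22 ± 0.43 for COL6A1, 0.01 ± 0.36 for COL6A2 and 0.35 ± 0.40 for COL6A3. The remaining chains, which decorate fibrils, lie beside basement membranes or span the cell membrane, had 0.64 ± 0.50 for COL12A1, -0.93 ± 0.49 for COL14A1, -0.19 ± 0.34 for COL16A1, -0.16 ± 0.22 for COL15A1, 0.31 ± 0.70 for COL18A1 and 0.33 ± 0.30 for COL13A1. Outside the collagens, the values were 0.11 ± 0.34 for FN1, 0.12 ± 0.26 for SPARC, 0.02 ± 0.32 for DCN, 0.11 ± 0.40 for FBN1, -0.23 ± 0.74 for LUM, 0.06 ± 0.74 for PDGFRB, 0.17 ± 0.39 for THY1 and -0.57 ± 0.54 for ACTA2. With these errors, changes of about the size of the SE were not detectable.

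Without R14143, 15 of 27 members had an unadjusted p under 0.05 and all 15 were higher with MRS2578. Of all 11915 genes tested, 3.73% had such a p in either direction, and 2.40% had such a p and were higher. None of the 15 members passed adjustment, and the smallest adjusted p of these members was 0.987. The 15 genes were FN1, SPARC, FBN1, COL1A1, COL1A2, COL3A1, COL5A1, COL5A2, COL5A3, COL11A1, COL4A1, COL4A2, COL6A1, COL6A3 and COL12A1. COL4A1 had the highest log2 fold change of the 15 over these 3 animals, at 1.6. R14143 was singled out here with its values known, and R02046 was kept as labelled. With R14143 left out and the R02046 libraries exchanged, 7 of 27 members had an unadjusted p under 0.05, 5 of them higher and 2 lower, against 25.3% of all genes.

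With the R02046 libraries exchanged, 40 of 12267 genes (0.326%) and 1 of 28 members had an adjusted p under 0.05. The median of the members was then -0.03, with 13 of 28 above 0, and at an unadjusted p under 0.05 there were 2 members, COL14A1 and ACTA2, against 15.6% of all genes. Without R02046, no gene passed (0%), and the same 2 members had an unadjusted p under 0.05, against 13.3% of 12154 genes. After the exchange, DESeq2's Wald test called 577 genes (4.7%), edgeR with its own filterByExpr called 39 genes (0.321%), and edgeR without R14143 called 803 genes (6.74%), each with the same 1 member. Leaving out R07110 or R12016 after the exchange took the count from 40 to 0 genes (0%) and 0 members.

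COL14A1 (ENSMMUG00000002595), whose product associates with the surface of collagen fibrils, was that member. It was at 10.1, 21.2, 5.56 and 8.53 CPM with uLPS and at 4.04, 5.11, 12.1 and 3.69 CPM with MRS2578 in R07110, R12016, R02046 as labelled and R14143. With MRS2578, COL14A1 was thus lower in R07110, in R12016 and also in R14143, including the 2 animals in which nearly all other members were higher, and higher in R02046 as labelled. On the log2 scale edgeR gave a fold change of -0.93 ± 0.49 (SE) under the deposited labels, with an adjusted p of 0.910. Exchanging the libraries gave -1.44 ± 0.20 (adjusted p = 0.0449), and leaving R02046 out gave -1.53 ± 0.22 (adjusted p = 0.149). With the libraries exchanged, its levels did not overlap between the conditions, as for 2.98% of all genes. That call was lost when R07110 (adjusted p = 0.321) or R12016 (adjusted p = 0.151) was also left out, and kept when R14143 was left out (adjusted p = 0.0168). COL14A1 is listed in the study's table of changed genes, so it was chosen on these same libraries and its direction is not independent evidence. Per kb, the ratio of COL14A1 to COL1A1 ranged from 0.0142 to 0.439, or 30.9-fold, over the 8 libraries. ACTA2, the other member with this pattern of directions, was at -1.14 ± 0.39 (SE, edgeR adjusted p = 0.219) once the libraries were exchanged. The pattern was found for 2 members (7.14%) and for 13.2% of all genes.

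**Figure D5:**
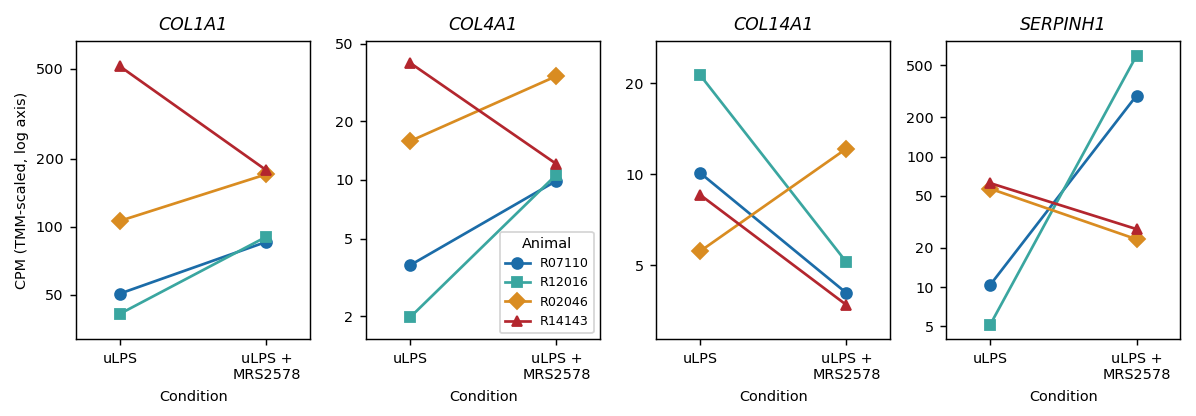
CPM (log axis) of COL1A1, COL4A1, COL14A1 and the collagen chaperone gene SERPINH1 with uLPS and with uLPS and MRS2578, with a line for each animal (deposited labels). With MRS2578, COL1A1 and COL4A1 were lower only in R14143, COL14A1 was higher only in R02046, and SERPINH1 was at 294 against 10.4 CPM in R07110 and 594 against 5.16 CPM in R12016 but lower in the other 2 animals.

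Differences between the animals were then tested in the same edgeR fit, a comparison chosen after seeing the data. Over 4 animals, 1 of 28 members, COL16A1 (adjusted p = 0.0262), differed between animals, against 6.38% of all genes. Without R14143, 10 of 27 members did, against 2.97% of the genes: FN1, DCN, COL1A1, COL3A1, COL5A2, COL5A3, COL4A1, COL4A2, COL11A1 and COL16A1. Of these, FN1 had the lowest adjusted p, at 0.0263, and its levels in R02046, 352 and 438 CPM, were above the 84.7 to 146 CPM of R07110 and R12016. COL5A3 had the opposite order, with 6.73 and 10.6 CPM in R02046 and 14.8 to 28.7 CPM in the other pair. With 2 libraries per animal, such values describe these 4 animals and not their sexes or ages.

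The machinery that modifies and assembles collagen was examined as a list of 29 genes, of which 27 were tested. In edgeR over all animals, 0 were called, 15 had a log2 fold change above 0 and 12 below, and the median was 0.02. In R07110 22 of these 27 genes were higher with MRS2578, in R12016 18, in R02046 as labelled 15 and in R14143 4. The genes with the lowest p were PCOLCE2, an enhancer of procollagen cleavage (log2 fold change -0.32, SE 0.17), LOXL4, a cross-linking oxidase (-0.93, SE 0.55), and P4HA1, a prolyl hydroxylase subunit (0.24, SE 0.19). All 3 had an adjusted p of at least 0.91. SERPINH1 encodes HSP47, a chaperone particular to procollagen that is also a heat shock gene, and was singled out after its values were seen. It was at 10.4, 5.16, 56.7 and 62.6 CPM with uLPS and at 294, 594, 23.3 and 27.8 CPM with MRS2578, so it was higher with MRS2578 in R07110 and R12016 by 4.80 and 6.82 on the log2 scale and lower in R02046 as labelled and in R14143. Over all animals edgeR gave 2.14 ± 1.97 (SE) on the log2 scale, with an adjusted p of 0.924. With the R02046 libraries exchanged, SERPINH1 was lower with MRS2578 in R14143 alone, and edgeR gave 2.95 (adjusted p = 0.359).

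Other matrix proteins gave 27 tested genes of 43 with a row, of which 15 were above 0, 12 below and 0 called, with a median of 0.02. THBS1, a matricellular glycoprotein (0.69, SE 0.29), and TNFAIP6, a hyaluronan-binding protein induced in inflammation (-1.13, SE 0.52), were among the genes with the lowest p. With the R02046 libraries exchanged, TNFAIP6 was lower with MRS2578, at -1.62 (adjusted p = 0.0478). Of 15 matrix receptors tested, 8 were above 0, 7 below and 0 called, with a median of 0.01, and LAIR1 (-0.29, SE 0.13), an inhibitory collagen receptor of leukocytes, OSCAR (-0.34, SE 0.17), a collagen receptor of myeloid cells, and SDC4 (0.27, SE 0.18), a syndecan, had the lowest p. Of 20 tested genes of the TGF-beta axis, which drives matrix expression in fibroblasts, 10 were above 0, 10 below and 0 called, with a median of 0.03. TGFB3, a ligand (-0.69, SE 0.28), SKI, a repressor of SMAD signaling (0.18, SE 0.11), and LTBP4, which holds the latent ligand in the matrix (0.45, SE 0.29), had the lowest p there. In the order R07110, R12016, R02046 as labelled and R14143, 18, 17, 16 and 5 of the 27 other matrix genes were higher with MRS2578. For the 15 receptors these counts were 7, 5, 12 and 4, and for the 20 TGF-beta genes 11, 12, 14 and 4.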

How the data were processed

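Messenger RNA of 8 microglia cultures was made into directional libraries and sequenced. Per the study's methods, the authors trimmed reads with fastp, aligned them to Mmul_10 with STAR and counted unique reads within exons with HTSeq. The submitters' processing notes instead name Trimmomatic 0.30, TopHat2 2.0.14, SAMtools 1.3 and HTSeq 0.6.1p1. The annotation release and the strand setting are not given in the sources used here, so overlapping antisense genes cannot be told apart. The deposited values are raw read counts per Ensembl gene, without normalization. Samples were grouped by their labels.

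Here, the 12267 genes with at least 10 counts in at least 4 libraries were kept and scaled by TMM. MRS2578 was tested with edgeR 4.0.16 in R 4.3.3 (quasi-likelihood F-test, animal as a block, Benjamini-Hochberg adjustment over all genes, threshold 0.05). SE is the log2 fold change divided by the root of F. Differences within an animal were taken between log2 CPM values computed with 2 prior counts. The block follows from the labels, which give both libraries of a number the same animal, and their deviations from the condition means correlated at 0.590 (R07110), 0.545 (R12016), 0.459 (R02046) and 0.554 (R14143). On simulated counts with 200 genes changed 3-fold, the test of MRS2578 called 209 of 12163 genes and 199 of the changed ones. The simulation had the same change in every animal, no differences between animals and a fixed dispersion. It checks that the code runs correctly and does not give the power of the test in these data. Positions, exon lengths and the sequence are those of the NCBI RefSeq annotation of Mmul_10, matched by symbol for 49 of 50 members.

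Alternatives were DESeq2 1.42.0 (size factors or its Wald test), filterByExpr, no filter, no block, a prior count of 0.25, each animal left out, and the R02046 libraries exchanged. The members, the lists and the rule for naming genes (all tested members with their fold change, values per library for the most abundant and best known, and the 3 lowest p of each list, of which 1 gene is not reported here) were chosen with earlier results of these data known. SERPINH1, SPARCL1, HSPG2, LOX, CCN2, BGN, GJA1, KDR, TEK, CSPG4, TAGLN, CLDN5, CDH5 and ESAM were named after their values were seen. The authors' fold changes and p-values were not used. Intervals and floors cover counting error only.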

Additional observations from a re-analysis of the deposited data

Results flagged for a closer look

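Of 56 groups of 4 libraries (28 genes in each of the conditions), 10 held a library that stood apart from the other 3 by Dixon's criterion. For independent, normally distributed values this criterion flags about 1 in 20, or 2.8 groups. The values here were untransformed CPM of genes that often peaked in the same library, and the share over all genes was not computed. No excess is therefore read from the 10 groups. Of these, 5 were in the uLPS library of R14143. COL1A1 was at 511.4 CPM there against 41.24 to 106.2 CPM in the other uLPS libraries, COL6A2 at 67.83 against 24.92 to 28.75 CPM, and COL6A3 at 106.5 against 12.21 to 13.32 CPM. FBN1 was at 103.8 against 10.9 to 21.27 CPM and COL15A1, a collagen beside basement membranes, at 20 against 6.912 to 7.267 CPM. In the same library, BGN and the summed mural markers were also the highest of the 8 libraries, as given in the report, and their part was not tested. The mural markers did not share this rank: TAGLN was at 63.01 CPM there, whereas CSPG4 was at 26.25 CPM there and up to 58.7 CPM elsewhere.

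The other 5 were spread over 3 libraries. In the library labelled R02046 uLPS and MRS2578, COL4A1 was at 34.09 CPM against 9.896 to 12.07 CPM and COL14A1 at 12.14 against 3.688 to 5.107 CPM. These 2 values become uLPS values if the R02046 libraries are exchanged. In the MRS2578 library of R12016, SPARC was at 159.9 against 58.23 to 72.34 CPM and THY1 at 5.422 against 1.229 to 1.535 CPM. ACTA2 was at 5.036 CPM in the uLPS library of R12016 against 0.5343 to 1.066 CPM.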

How the results depend on the processing

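With the deposited labels, the count of members called was 0 under every alternative run, and the count of genes called was 0 except for 1 with the DESeq2 Wald test. With the R02046 libraries exchanged, 40 genes and 1 member were called, 577 genes and 1 member with the DESeq2 Wald test, 39 genes and 1 member with filterByExpr, and 803 genes and 1 member without R14143, whereas leaving out R07110 or R12016 gave 0 genes and 0 members. Where a member was called, it was COL14A1.

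Leaving out the animal block, which treats the paired libraries as unrelated, gave 0 calls, a member median of -0.18 and 9 of 28 values above 0. It reversed 13 log2 fold changes, to -0.32 for FN1, -0.44 for COL1A1, -0.42 for COL1A2, -0.19 for COL3A1, -0.29 for DCN, -0.084 for COL6A1, -0.092 for COL6A2, -0.34 for COL6A3, -0.51 for FBN1, -0.38 for COL5A2, -0.16 for COL5A3, -0.17 for COL4A2 and -0.13 for PDGFRB. The cause was not tested.

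Exchanging R02046 reversed 11, to -0.065 for FN1, -0.084 for COL1A1, -0.46 for COL3A1, -0.007 for DCN, -0.061 for COL6A3, -0.13 for FBN1, -0.34 for COL5A2, -0.22 for COL5A3, -0.30 for COL5A1, -0.51 for COL11A1 and 0.25 for LUM. With no filter, COL6A2 went to -0.001.

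Leaving out each animal in turn gave ranges that cross 0 for 18 members: -0.13 to 0.56 for FN1, -0.17 to 0.75 for COL1A2, -0.074 to 0.45 for SPARC, -0.079 to 0.99 for COL3A1, -0.32 to 0.42 for DCN, -0.15 to 0.77 for COL6A1, -0.33 to 0.46 for COL6A2, -0.20 to 0.67 for FBN1, -0.12 to 0.78 for COL5A2, -0.10 to 0.47 for COL5A3, -0.33 to 0.074 for COL15A1, -0.004 to 1.29 for COL11A1, -0.62 to 0.15 for COL8A1, -0.41 to 0.25 for COL16A1, -0.75 to 0.58 for PDGFRB, -0.25 to 0.40 for THY1, -0.36 to 0.60 for COL18A1 and -0.76 to 0.41 for LUM. COL18A1 did not pass the filter without R07110 or without R14143, so its range rests on the other 2 fits. A prior count of 0.25 changed the sign of none of the 112 within-animal differences.

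The limits are these. With 4 animals, 1 library each and 1 doubtful animal, the SE of most members exceeded their fold change. Leaving out 1 animal reversed 12 signs without R12016, 7 without R07110, 6 without R02046 and 4 without R14143. Scarce genes such as LUM rest on few counts. Depth does not limit the abundant chains, and no untreated control culture was analysed here.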

Other observations

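SPARCL1, a secreted relative of SPARC, had the widest gap between animals that was noticed among the other matrix proteins. It was at 107 to 204 CPM in the 6 libraries of R07110, R12016 and R02046, and at 1.88 and 1.23 CPM in the uLPS and MRS2578 libraries of R14143. SPARC itself was at 107 and 58.2 CPM in R14143. The gene was singled out after its values were seen, and the gap was not tested.

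Among the matrix and TGF-beta genes, several others were highest in the uLPS library of R14143. HSPG2, the basement membrane proteoglycan perlecan, was at 47.6 CPM there and 11.1 to 22.2 CPM elsewhere, and LOX, a collagen cross-linking oxidase, at 15.1 CPM there and 0.883 to 5.25 CPM elsewhere. CCN2, a matricellular protein, was at 61.2 CPM there and 10.2 to 16.3 CPM elsewhere. These 3 genes were also singled out after their values were seen, and none had an adjusted p under 0.05 for MRS2578 in edgeR's test.

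The 6 astrocyte markers summed to 88.8 to 205 CPM, the 8 rows of oligodendrocyte markers to 223 to 407 CPM, the 5 neuron markers to 0.213 to 9.58 CPM and the 6 lymphocyte markers to 0.107 to 0.518 CPM. In the uLPS library of R14143 the astrocyte sum was the highest of the 8, at 204.7 CPM against 203 CPM in the uLPS library of R12016. The markers did not share this rank. GJA1, a gap junction gene, was at 71.1 CPM there against 9.5 to 22.6 CPM elsewhere, and SLC1A2 also peaked there, at 44.6 CPM. GFAP, at 34.1 CPM there and up to 88.7 CPM elsewhere, did not, nor did SLC1A3, AQP4 and ALDH1L1. In the same library the oligodendrocyte sum was 239 CPM and the neuron sum 0.457 CPM.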
